A study of Homo sapiens with 8 samples.

Results

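RNA sequencing of 2 T-cell acute lymphoblastic leukemia (T-ALL) cell lines was used to follow the genes of glycolysis and of the response to low oxygen after knockdown of LDB1, a looping co-factor that brings enhancers and promoters together. The genes were 35 listed symbols, taken as the entries with those symbols in the count table of each line, and all 35 were found among 64252 genes. By role they were 4 glucose or lactate transporters, 17 glycolytic enzymes, 3 PFKFB enzymes, 3 genes of the oxygen sensor (HIF1A and 2 prolyl hydroxylases) and 8 targets of the hypoxia-inducible factor (HIF). The 8 libraries formed 4 groups of 2, namely 6T-CEM and J.gamma1 cells, each with a control hairpin (sh-NC) or a hairpin against LDB1 (sh-LDB1). 6T-CEM is a subline of the CCRF-CEM line, and J.gamma1 is a derivative of Jurkat that lacks the signalling enzyme PLCγ1. Every group, the control group included, was transduced with a pLKO.1 lentivirus and selected with puromycin, and the hairpin used in the sequenced LDB1-knockdown cells is not named in the sources used here. Nothing in the labels says that the 2 libraries of a group came from separate cultures, so the p-values measure the spread between these libraries, which may be technical.

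Glycolysis converts glucose to pyruvate in the cytosol, and lactate dehydrogenase then turns pyruvate into lactate, which leaves the cell through monocarboxylate transporters. HIF is a transcription factor whose alpha subunit is hydroxylated by the EGLN prolyl hydroxylases when oxygen is present and is then degraded through VHL. When oxygen is short, HIF builds up and raises glucose transporters, most glycolytic enzymes, PDK1, BNIP3, VEGFA and the hydroxylases themselves. Leukemic and activated T cells are known for high glycolysis with oxygen present. HIF1A itself is controlled mainly through the stability of its protein, so its mRNA is not a readout of HIF activity.

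The libraries held between 26160492 and 30604977 counts, and the 35 genes held between 1.61% and 1.74% of the counts of 6T-CEM libraries, against 1.29% to 1.33% for J.gamma1. Levels are given below as CPM (counts scaled to a common library size) after TMM scaling over the 8 libraries, and changes as the log2 fold change of sh-LDB1 against sh-NC with its standard error. The edgeR adjusted p comes from the quasi-likelihood test of edgeR, adjusted by Benjamini-Hochberg over every gene tested in a line, and a gene was called at a value under 0.05. LDB1 itself stood at 107 and 111 CPM in the sh-NC libraries and 36.7 and 34.8 CPM in the sh-LDB1 libraries of 6T-CEM (-1.60 ± 0.071 (SE), edgeR adjusted p = 1.02e-09). In J.gamma1 it stood at 60.7 and 59.1 CPM in the control group and 33.1 and 30.7 CPM in LDB1-knockdown cells (-0.89 ± 0.075 (SE), edgeR adjusted p = 3.68e-06). LDB1 was therefore lower in both lines, but fell less in J.gamma1. The log2 difference between the lines was 0.70 ± 0.095 (SE), edgeR adjusted p = 2.37e-04. Its sh-NC level was also lower in J.gamma1 (-0.87 ± 0.065 (SE), edgeR adjusted p = 1.58e-07). Of 11 T-cell markers, 10 reached 1 CPM in both groups of 6T-CEM, where CD2 was near 0, and 11 did in J.gamma1. Their summed level ran from 2775.5 to 2889 CPM in the sh-NC libraries of 6T-CEM and from 3437 to 3529.7 CPM in its sh-LDB1 libraries. For J.gamma1 the sums were 2553 to 2572 CPM against 3433 to 3449.8 CPM. By gene, 6 of the 11 markers were called higher and 1 lower in 6T-CEM (all genes tested: 15.1% and 16.2%). In J.gamma1, 7 were higher and 2 lower (all genes tested: 25.0% and 26.5%). The part of this difference in the changes below was not tested, and in bulk RNA fewer cells with a transcript and less of it per cell cannot be told apart. Summed levels of 5 myeloid markers were at most 2.83 CPM and those of 5 erythroid markers at most 1.02 CPM in any library, and of the 5 B-cell markers CD79A alone exceeded 20 CPM.

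In 6T-CEM the genes split, with 4 higher, 12 lower and 18 not past the test among 34 tested. Over all 16059 genes tested in that line, 15.1% were called higher and 16.2% lower. In J.gamma1, 6 were higher, 15 lower and 14 not past the test among 35 tested, beside 25.0% higher and 26.5% lower of 17215 genes. The share called lower was thus above the background in both lines and the share called higher below it, while the 35 genes had a median log2 change at -0.10 for 6T-CEM and -0.0093 for J.gamma1, beside 0.0027 and -0.00025 over all genes tested. That background includes many genes of few counts. With a mean of at least 50 counts required, 2417 genes were higher and 2509 lower of 12653 in 6T-CEM, beside 4 and 12 of the 35. In J.gamma1 that filter gave 4082 higher and 4114 lower of 13486, beside 7 and 14 of the 35. With a log2 fold change over 1 required as well, 1 gene was higher (SLC2A3) and 1 lower (ALDOC) in 6T-CEM, where the background was 2.74% and 2.39%. The same requirement left 1 higher (SLC2A3) and 4 lower (HK1, ALDOC, PFKFB3 and BNIP3L) in J.gamma1, where the background was 6.67% and 7.19%. Of the 34 genes tested in both lines, 10 were lower in both, or 29.4% of them. Of all 14902 genes tested in both, those of few counts included, 10.5% were. The 10 genes were HK1, PFKM, ALDOC, LDHB, PFKFB2, PFKFB3, EGLN1, PDK1, BNIP3L and P4HA1. SLC2A3 and PKM were higher in both (9.11% of all genes), and ENO2 alone was called in opposite directions (3.34% of all genes).

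**Figure D1:**
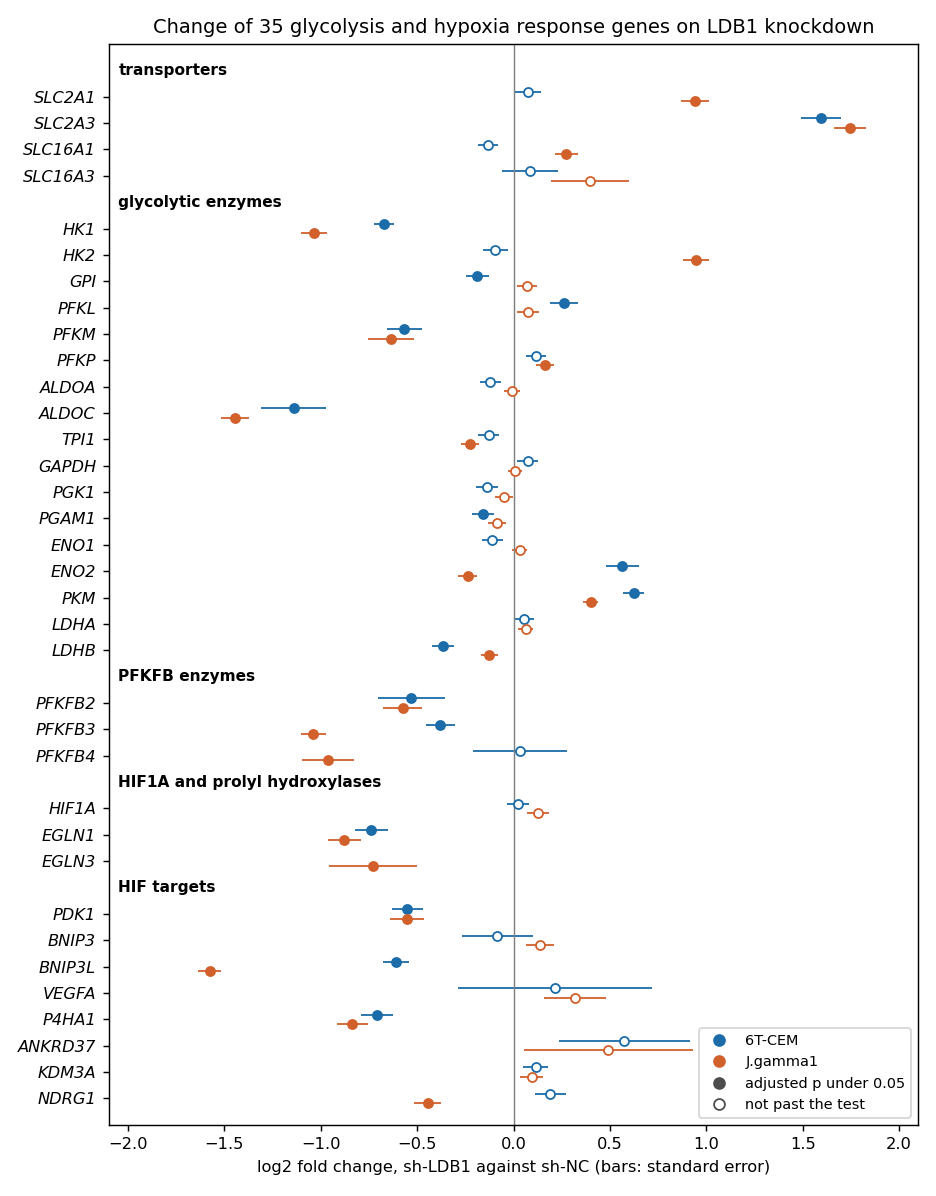
Log2 fold change of each of the 35 genes in LDB1-knockdown cells against the control group, with 6T-CEM in blue and J.gamma1 in orange, n = 2 libraries per group; bars are standard errors and filled points passed the edgeR test at an adjusted p under 0.05. SLC2A3 lies farthest to the right in both lines and BNIP3L farthest to the left in J.gamma1, while ALDOA, GAPDH, ENO1 and LDHA lie near 0; EGLN3 was not tested in 6T-CEM.

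Glucose enters these cells through SLC2A1 (GLUT1), the widespread basal transporter, and SLC2A3 (GLUT3), a transporter of high affinity. SLC2A3 was the gene of the set that rose most in each line. It stood at 13.9 and 12.2 CPM in the sh-NC and 38.6 and 39.7 CPM in the sh-LDB1 libraries of 6T-CEM, a 3.02-fold difference (1.60 ± 0.10 (SE), edgeR adjusted p = 4.42e-08). In J.gamma1 the values were 14.5 and 16.1 CPM against 50.5 and 50.5 CPM, or 3.35-fold (1.74 ± 0.084 (SE), edgeR adjusted p = 5.61e-08). The groups were far apart in both lines, and adding the few counts of SLC2A14, its near-identical neighbour, gave 1.60 and 1.74. SLC2A1 did not share this pattern. Its libraries overlapped in 6T-CEM, at 69.9 and 67.6 CPM in control and 69.4 and 74.2 CPM in knockdown cells (0.073 ± 0.070 (SE), edgeR adjusted p = 0.478). In J.gamma1 it rose from 34.1 and 31.9 CPM to 60.99 and 64.1 CPM (0.94 ± 0.074 (SE), edgeR adjusted p = 2.15e-06), so that the knockdown cells of J.gamma1 came near the level of 6T-CEM.

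Lactate and pyruvate are carried by SLC16A1 (MCT1) and, mostly outward, by SLC16A3 (MCT4). SLC16A1 stood at 282 and 273 CPM in the control and 251 and 252 CPM in the knockdown libraries of 6T-CEM (-0.13 ± 0.053 (SE), edgeR adjusted p = 0.07). In J.gamma1 it rose from 138 and 124 CPM to 151 and 160.3 CPM (0.27 ± 0.061 (SE), edgeR adjusted p = 0.00315). SLC16A3 was low everywhere, between 3.85 and 11.9 CPM, and passed the test in neither line (0.084 in 6T-CEM and 0.40 in J.gamma1). Its exons overlap those of CSNK1D on the opposite strand, a gene with 18.6 times its counts, so its level is uncertain where counting ignored the strand. In all, 1 of the 4 transporters was higher in 6T-CEM and 3 in J.gamma1, beside 15.1% and 25.0% of all genes tested. None was lower, and their median change was 0.078 and 0.67.

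Hexokinases trap glucose in the cell by phosphorylation. HK1 is the constitutive form and HK2 the form induced by growth signals and HIF. HK1 fell in both lines, from 271 and 269 CPM to 166 and 171 CPM in 6T-CEM (-0.67 ± 0.054 (SE), edgeR adjusted p = 3.38e-07). In J.gamma1 it fell from 90.8 and 97.7 CPM to 46.01 and 44.7 CPM (-1.03 ± 0.065 (SE), edgeR adjusted p = 4.29e-07). HK2 rose in J.gamma1, from 38.5 and 36.9 CPM in control to 70.1 and 73.2 CPM in knockdown cells (0.95 ± 0.069 (SE), edgeR adjusted p = 1.19e-06). In 6T-CEM it stood at 102 and 109 CPM and 96.2 and 99.7 CPM, a small gap that did not pass the test (-0.10 ± 0.064 (SE), edgeR adjusted p = 0.296). The fall of HK1 and the rise of HK2 in J.gamma1 were close in size and opposite in sign.

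**Figure D2:**
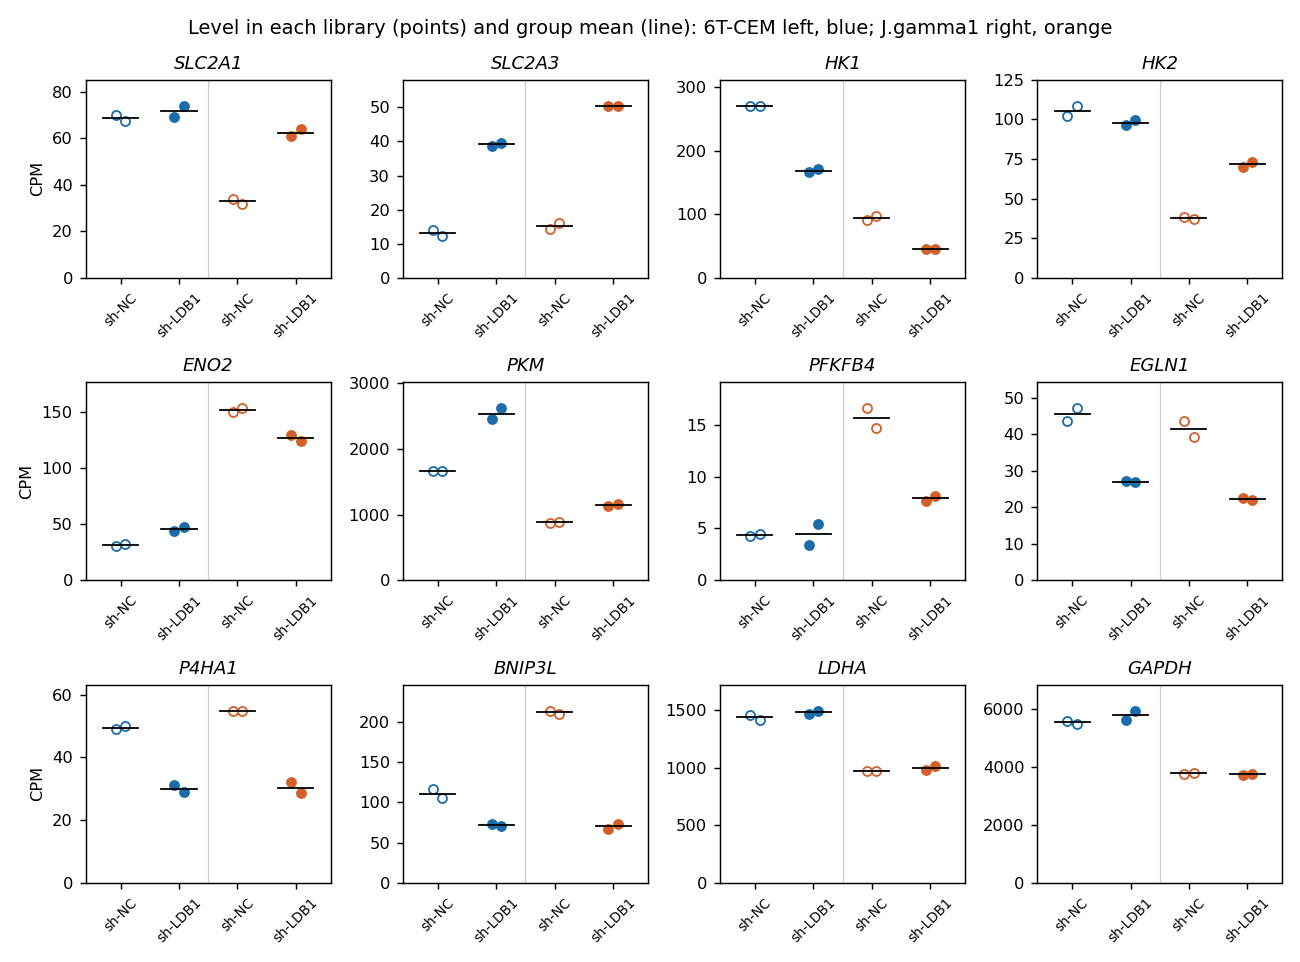
CPM (TMM scaled, linear axes from 0) of 12 of the genes in each library, with open points for sh-NC and filled points for sh-LDB1, 2 libraries per group, and a line at the group mean. EGLN1, P4HA1, HK1 and BNIP3L are lower in LDB1-knockdown cells of both lines, SLC2A3 and PKM are higher in both, SLC2A1 and HK2 are higher in the sh-LDB1 libraries of J.gamma1, and LDHA and GAPDH differ mainly between the lines.

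Of the enzymes between hexokinase and triose phosphates, the phosphofructokinases carry the committed step. PFKM, the muscle form, fell from 42.7 and 38.8 CPM to 28.3 and 26.4 CPM in 6T-CEM (-0.57 ± 0.090 (SE), edgeR adjusted p = 2.40e-04) and from 18.4 and 19.8 CPM to 11.1 and 13.1 CPM in J.gamma1 (-0.64 ± 0.12 (SE), edgeR adjusted p = 0.00121). It overlaps SENP1 on the opposite strand, which had 3.12 times its counts and was not called (0.11, edgeR adjusted p = 0.25 in 6T-CEM and -0.081, edgeR adjusted p = 0.315 in J.gamma1). PFKP, the platelet form and the most abundant of the 3 per length, changed little, by 0.12 in 6T-CEM and by 0.16 in J.gamma1, where it was called (0.013 as the edgeR adjusted p, and 0.0841 without sh-NC library 2). PFKL, the liver form, was called higher in 6T-CEM (0.26 ± 0.071 (SE), edgeR adjusted p = 0.0111), a call that was lost without sh-NC library 1 (adjusted p = 0.0979) or sh-LDB1 library 2 (adjusted p = 0.0862). GPI, which isomerizes glucose phosphate, was called lower in 6T-CEM (-0.19 ± 0.060 (SE), edgeR adjusted p = 0.0271). That call was lost without sh-NC library 2, where the change was -0.12 (adjusted p = 0.257), or without sh-LDB1 library 1 (adjusted p = 0.191).

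Aldolase cleaves the sugar into triose phosphates. ALDOC, the brain form, was the enzyme that fell most, from 12.3 and 11.8 CPM to 5.79 and 5.04 CPM in 6T-CEM (-1.14 ± 0.17 (SE), edgeR adjusted p = 1.14e-04) and from 75.6 and 81.4 CPM to 28.2 and 28.6 CPM in J.gamma1 (-1.45 ± 0.072 (SE), edgeR adjusted p = 7.02e-08). ALDOA, the main form, did not pass the test in either line, at -0.12 and -0.0093, the latter of no set direction since it was 0.040 with upper quartile scaling. GAPDH, often used as a reference gene and used so by the study in its qPCR, stood at 5568 and 5481 CPM in control and 5601 and 5933 CPM in knockdown cells of 6T-CEM (0.073 ± 0.054 (SE), edgeR adjusted p = 0.341). In J.gamma1 it stood at 3747 and 3785 CPM and 3716 and 3755 CPM (0.0078 ± 0.038 (SE), edgeR adjusted p = 0.882), so that its groups overlapped. PGK1 and ENO1 passed the test in neither line, with changes between -0.14 and 0.032. TPI1, which interconverts the triose phosphates, was called lower in J.gamma1 (-0.23 ± 0.046 (SE), edgeR adjusted p = 0.00186) and was at -0.13 in 6T-CEM. PGAM1, a mutase, was called lower in 6T-CEM at the edge of the threshold (-0.16 ± 0.056 (SE), edgeR adjusted p = 0.0446). Its adjusted p was 0.184 without sh-NC library 1, 0.137 without sh-NC library 2 and 0.311 without sh-LDB1 library 1, where the change was -0.091.

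Among the last enzymes, PKM, ENO2 and LDHB moved and LDHA did not pass the test. PKM, pyruvate kinase, rose from 1655 and 1659 CPM to 2451 and 2619 CPM in 6T-CEM (0.62 ± 0.055 (SE), edgeR adjusted p = 8.02e-07) and from 873 and 887 CPM to 1124 and 1165 CPM in J.gamma1 (0.40 ± 0.041 (SE), edgeR adjusted p = 1.46e-05). Gene counts do not separate its splice forms PKM1 and PKM2. ENO2, the neuronal enolase, was higher in 6T-CEM, at 30.3 and 32.3 CPM in control and 44.3 and 47.5 CPM in knockdown cells (0.56 ± 0.086 (SE), edgeR adjusted p = 1.59e-04). In J.gamma1 it was lower, at 150.3 and 154 CPM and 129.7 and 125 CPM (-0.24 ± 0.050 (SE), edgeR adjusted p = 0.00228). Neither pair of groups overlapped, and the directions were opposite. LDHA, the HIF-responsive lactate dehydrogenase subunit, had changes of 0.055 and 0.062 (edgeR adjusted p = 0.459 and 0.227). LDHB, the subunit that favours pyruvate formation, fell from 1421 and 1278 CPM to 1024 and 1055 CPM in 6T-CEM (-0.37 ± 0.058 (SE), edgeR adjusted p = 2.34e-04). In J.gamma1 LDHB was at 1031 and 1035 CPM and 904 and 966 CPM (-0.12 ± 0.044 (SE), edgeR adjusted p = 0.0343), a call lost without either sh-NC library (adjusted p = 0.0857 and 0.0838) and without sh-LDB1 library 1 (adjusted p = 0.301, change -0.076).

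Of all genes tested, 15.1% were called higher and 16.2% lower in 6T-CEM, and 25.0% and 26.5% in J.gamma1. Beside this, 3 of the 17 enzymes were called higher and 6 lower in each line, with median changes of -0.12 and -0.0093. Their summed level was 16433 and 16091 CPM in the sh-NC and 16066 and 16979 CPM in the sh-LDB1 libraries of 6T-CEM. In J.gamma1 the sums were 11551 and 11658 CPM against 11367 and 11719 CPM. The libraries of the groups therefore overlapped in both lines, and GAPDH and ENO1 were the largest terms of the sum in the controls of each. Processed pseudogenes resemble GAPDH, ENO1, PGAM1, LDHA, LDHB, TPI1 and PGK1, and the treatment of reads that match several genes is not given in the sources used here, so small changes of these genes are uncertain.

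The PFKFB enzymes make and break down the allosteric activator of phosphofructokinase. All 3 were called lower in J.gamma1 and 2 of them in 6T-CEM, beside 26.5% and 16.2% of all genes tested. PFKFB3, the inducible form with high kinase activity, fell from 66.97 and 69.3 CPM to 49.9 and 54.1 CPM in 6T-CEM (-0.38 ± 0.075 (SE), edgeR adjusted p = 0.00132). In J.gamma1 it fell from 77.3 and 75.5 CPM to 36.6 and 36.8 CPM (-1.04 ± 0.066 (SE), edgeR adjusted p = 4.62e-07), which is about 0.487 of the control level. PFKFB4, a HIF target, was low in 6T-CEM, where its libraries were at 4.27 and 4.48 CPM in control and overlapped with 3.44 and 5.46 CPM in knockdown cells (0.035 ± 0.24 (SE), edgeR adjusted p = 0.933). In J.gamma1 it fell from 16.6 and 14.7 CPM to 7.67 and 8.16 CPM (-0.96 ± 0.13 (SE), edgeR adjusted p = 1.43e-04). PFKFB2 was called lower in both, at -0.53 ± 0.17 (SE) in 6T-CEM, from 10.9 and 10.03 CPM to 6.41 and 7.999 CPM, and at -0.57 ± 0.10 (SE) in J.gamma1, from 30.7 and 27.6 CPM to 20.6 and 18.01 CPM. Its call in 6T-CEM (edgeR adjusted p = 0.0295) was lost without sh-NC library 1 (0.17), sh-NC library 2 (0.0862) or sh-LDB1 library 1 (0.192), adjusted p in each case. PFKFB2 shares exon bases with YOD1 on the opposite strand, which had 3.95 times its counts and was not called in either line. The 3 genes had median changes of -0.38 and -0.96 in 6T-CEM and J.gamma1.

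Hydroxylase transcripts of the oxygen sensor fell where they were tested, and HIF1A did not pass the test, although in J.gamma1 that depended on the setting. HIF1A stood at 243 and 240.2 CPM in control and 252 and 235 CPM in knockdown cells of 6T-CEM (0.023 ± 0.055 (SE), edgeR adjusted p = 0.795). In J.gamma1 it stood at 141 and 131 CPM and 150.1 and 142 CPM (0.13 ± 0.056 (SE), edgeR adjusted p = 0.0829); without sh-NC library 1 of that line it was called, at 0.18 (adjusted p = 0.0438). It was called there as well with upper quartile factors, at 0.18 (adjusted p = 0.0183), and with a mean of at least 50 counts, at 0.15 (adjusted p = 0.0363). EGLN1 (PHD2), the main hydroxylase of HIF in most cells and itself a HIF target, fell from 43.7 and 47.2 CPM to 27.3 and 26.9 CPM in 6T-CEM (-0.74 ± 0.086 (SE), edgeR adjusted p = 1.42e-05). The fall in J.gamma1 was from 43.8 and 39.3 CPM to 22.6 and 21.9 CPM (-0.88 ± 0.085 (SE), edgeR adjusted p = 1.01e-05). What remained was 0.600 times the control level in 6T-CEM, beside 0.544 times in the other line. EGLN3 (PHD3), the hydroxylase that HIF raises most strongly, had at most 4 counts in any library of 6T-CEM and was not tested there. In J.gamma1 it had 127 and 132 counts in the control and 71 and 70 counts in the knockdown libraries (-0.73 ± 0.23 (SE), edgeR adjusted p = 0.0201). This call was lost without sh-NC library 2 (adjusted p = 0.068), sh-LDB1 library 1 (0.0534) or sh-LDB1 library 2 (0.0824).

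The 8 HIF targets fell into genes that were lower and genes that did not pass the test, and none was called higher. P4HA1, a subunit of the enzyme that hydroxylates collagen, fell from 49.00 and 50.03 CPM to 31.1 and 29.04 CPM in 6T-CEM (-0.71 ± 0.083 (SE), edgeR adjusted p = 1.41e-05) and from 55.01 and 54.7 CPM to 32.03 and 28.6 CPM in J.gamma1 (-0.84 ± 0.080 (SE), edgeR adjusted p = 9.12e-06). PDK1, the kinase that inactivates pyruvate dehydrogenase and so keeps pyruvate from oxidation in mitochondria, fell from 57.04 and 55.2 CPM to 36.8 and 39.2 CPM (-0.55 ± 0.079 (SE), edgeR adjusted p = 8.93e-05) and from 28.98 and 27.8 CPM to 18.9 and 19.3 CPM (-0.55 ± 0.087 (SE), edgeR adjusted p = 3.40e-04), by nearly the same amount in both lines. BNIP3L (NIX), a mitophagy receptor, fell from 116 and 106 CPM to 73.6 and 70.7 CPM in 6T-CEM (-0.61 ± 0.068 (SE), edgeR adjusted p = 9.16e-06). In J.gamma1 it fell from 214 and 209.6 CPM to 66.5 and 73.7 CPM (-1.58 ± 0.059 (SE), edgeR adjusted p = 1.09e-08), the deepest fall of the set, and the knockdown groups of the 2 lines ended at similar levels. BNIP3L shares exon bases with PNMA2 on the opposite strand, which had 0.422 times its counts and was lower as well (-0.46, edgeR adjusted p = 0.00132 in 6T-CEM and -0.996, edgeR adjusted p = 5.34e-07 in J.gamma1). Whether counting used the strand is not given in the sources used here, and without it reads of the pair cannot be told apart.

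The other targets were called in 1 line or in neither. NDRG1, a differentiation and stress gene, was lower in J.gamma1, from 77.3 and 72.3 CPM to 52.1 and 56.1 CPM (-0.45 ± 0.069 (SE), edgeR adjusted p = 3.01e-04), and stood at 38.2 and 38.3 CPM and 42.2 and 44.5 CPM in 6T-CEM (0.19 ± 0.081 (SE), edgeR adjusted p = 0.0896). BNIP3, the close relative of BNIP3L, was at -0.084 in 6T-CEM and 0.13 in J.gamma1, and KDM3A, a histone demethylase, at 0.12 and 0.093. None of these 4 values passed the test. VEGFA, the endothelial growth factor, was under 1 CPM in every 6T-CEM library and between 7.18 and 9.79 CPM in J.gamma1, with changes of 0.22 ± 0.504 (SE) and 0.32 ± 0.16 (SE). ANKRD37 had between 18 and 57 counts in each library, and its changes of 0.58 ± 0.34 (SE) and 0.49 ± 0.44 (SE) did not pass the test. UFSP2, which overlaps it on the opposite strand, had 25.7 times its counts.

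Set side by side, the transporters, enzymes and PFKFB genes (24 in all) had 4 calls higher and 8 lower in 6T-CEM and 6 higher and 9 lower in J.gamma1, with medians of -0.12 and -0.00072. The 11 genes of the oxygen sensor and HIF targets had no call higher, 4 lower of 10 tested in 6T-CEM and 6 lower of 11 in J.gamma1, with medians of -0.030 and -0.45. Over all genes tested, 15.1% were called higher and 16.2% lower in 6T-CEM, and 25.0% and 26.5% in J.gamma1. Genes that HIF is known to raise were found on both sides, since SLC2A3 in both lines and SLC2A1 and HK2 in J.gamma1 were higher while EGLN1, P4HA1, PDK1 and BNIP3L were lower in both, and LDHA, ENO1, PGK1 and ALDOA did not pass the test. The difference between the 2 sets of genes was not tested.

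The knockdown change differed between the lines for 12 of the 35 genes by the test of the interaction over the 8 libraries. It was more positive in J.gamma1 for 5 of them and more negative for 7, beside 12.0% and 12.4% of the 18552 genes tested. LDB1 itself fell less in J.gamma1 (0.70 ± 0.095 (SE), edgeR adjusted p = 2.37e-04). The part of this unequal knockdown in the 12 differences was not tested. Among the 35 genes, HK2 had the largest positive difference (1.04 ± 0.084 (SE), edgeR adjusted p = 6.37e-06), followed by SLC2A1 (0.87 ± 0.10 (SE), edgeR adjusted p = 5.82e-05) and SLC16A1 (0.41 ± 0.078 (SE), edgeR adjusted p = 0.00268). Each of these 3 genes was called higher in J.gamma1 and was not called in 6T-CEM, while SLC2A3 (0.15) and SLC16A3 (0.31) had no called difference. The largest negative differences were those of PFKFB4 (-1.001 ± 0.29 (SE), edgeR adjusted p = 0.0255), BNIP3L (-0.97 ± 0.091 (SE), edgeR adjusted p = 1.93e-05) and ENO2 (-0.80 ± 0.085 (SE), edgeR adjusted p = 4.57e-05). PFKFB3 (-0.66 ± 0.092 (SE)), NDRG1 (-0.64 ± 0.10 (SE)) and HK1 (-0.36 ± 0.074 (SE)) followed, and each of these 9 except PFKFB4 kept its call without any one library. Smaller differences were called for GPI (0.26), LDHB (0.24) and PKM (-0.23).

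Those 3 smaller calls and that of PFKFB4 were lost when some single libraries were left out. For PFKFB4 the adjusted p lay between 0.0606 and 0.115 without sh-NC library 1, sh-NC library 2 or sh-LDB1 library 2 of 6T-CEM, or without sh-NC library 1 or either sh-LDB1 library of J.gamma1, and the difference was -0.62 without sh-LDB1 library 2 of 6T-CEM. For PKM it lay between 0.0533 and 0.0709 without either sh-NC library or sh-LDB1 library 2 of 6T-CEM, or without sh-NC library 2 or sh-LDB1 library 1 of J.gamma1. The GPI call was lost without sh-NC library 2 or sh-LDB1 library 1 of 6T-CEM, or without sh-NC library 2 or either sh-LDB1 library of J.gamma1, at 0.0938 to 0.157. The LDHB call was lost without sh-NC library 1 or sh-LDB1 library 1 of 6T-CEM, or without either sh-NC library or sh-LDB1 library 2 of J.gamma1, at 0.08 to 0.157. Without sh-LDB1 library 1 of 6T-CEM, or without sh-NC library 2 or sh-LDB1 library 2 of J.gamma1, 3 genes in place of 5 had a more positive change in J.gamma1.

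The control cells of the lines already differed in these genes, although line and separate handling of the lines cannot be told apart. Of the 35 genes, 11 were higher and 18 lower in J.gamma1 sh-NC than in 6T-CEM sh-NC, beside 34.6% and 31.1% of all 18552 genes tested. EGLN3 (4.72 ± 0.38 (SE)), VEGFA (3.65 ± 0.25 (SE)) and BNIP3 (3.04 ± 0.094 (SE)) were much higher in J.gamma1 on the log2 scale. ALDOC (2.69 ± 0.091 (SE)), ENO2 (2.27 ± 0.062 (SE)), PFKFB4 (1.83 ± 0.21 (SE)), PFKFB2 (1.46 ± 0.14 (SE)), NDRG1 (0.95 ± 0.070 (SE)) and BNIP3L (0.92 ± 0.064 (SE)) were higher too, as were PGK1 (0.47) and PFKL (0.36). Of these 11 genes, ALDOC, ENO2, PFKFB4, PFKFB2, BNIP3L, NDRG1 and EGLN3 were lower in the LDB1-knockdown cells of J.gamma1, beside 26.5% of all genes tested there. Both comparisons use the same sh-NC libraries of J.gamma1, so they are not independent, and an error in those libraries would move both. HK1 (-1.53 ± 0.052 (SE)), HK2 (-1.496 ± 0.061 (SE)), SLC16A3 (-1.36 ± 0.17 (SE)), PFKM (-1.11 ± 0.10 (SE)), SLC16A1 (-1.10 ± 0.056 (SE)) and SLC2A1 (-1.07 ± 0.068 (SE)) were lower in J.gamma1 by over 1 on the log2 scale, so that 3 of the 4 genes of glucose entry and trapping had lower transcript levels there. SLC2A3 (0.22) and GPI (-0.13) did not pass the test, but SLC2A3 did without sh-NC library 1 of either line (adjusted p = 0.0409 and 0.0431), and GPI did without sh-NC library 1 of 6T-CEM (0.0233), either sh-LDB1 library of 6T-CEM (0.047 and 0.0495) or sh-NC library 1 of J.gamma1 (0.038).

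**Figure D3:**
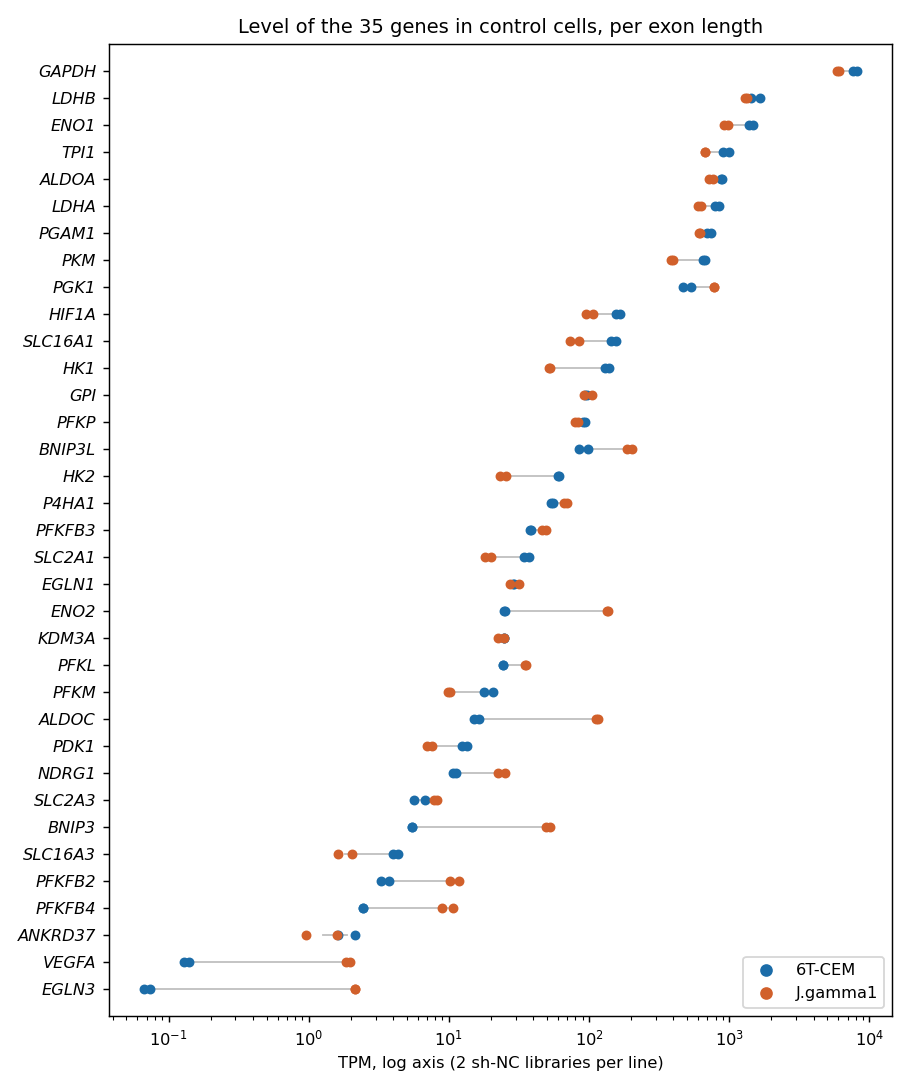
TPM (transcript level per exon length, log axis) of the 35 genes in the 2 sh-NC libraries of 6T-CEM (blue) and of J.gamma1 (orange), ordered by the mean in 6T-CEM; a grey line joins the means of the lines. GAPDH is highest in both, and the widest gaps between the lines are those of EGLN3, VEGFA, BNIP3, ALDOC and ENO2.

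Levels of different genes were set side by side per length, as TPM from the union of each gene's exons, with the SD over 2 libraries. GAPDH was the most abundant of the 35 in the control cells, at 7886 ± 361 TPM in 6T-CEM and 5992 ± 155 TPM in J.gamma1. LDHB (1549.5 ± 169 and 1320.4 ± 39.7 TPM) and ENO1 (1437 ± 69.4 and 956 ± 45.7 TPM) came next in both lines. The libraries of LDHB and ENO1 overlapped in 6T-CEM and not in J.gamma1, so their order is unsettled in the former. TPI1, ALDOA, LDHA, PGAM1 and PKM followed in 6T-CEM, from 954 down to 661 TPM, but their order depends on the length used. With the longest transcript, LDHA (1604 TPM) and PKM (1373 TPM) came before TPI1 (1067 TPM), and with the canonical transcript PKM (1399 TPM) came before LDHA (1249 TPM), while GAPDH stayed first. By exon union the 6T-CEM libraries of HIF1A and SLC16A1 overlapped, and so did those of GPI, PFKP and BNIP3L. In all, 12 genes reached 100 TPM in 6T-CEM controls and 13 in J.gamma1 controls. EGLN3, VEGFA, ANKRD37, PFKFB4 and PFKFB2 were the 5 lowest in 6T-CEM with each length, with 0.0702 TPM for EGLN3 and 3.53 TPM for PFKFB2. After knockdown SLC2A3 moved by exon union length from rank 28 to rank 23 of the 35 in 6T-CEM and from rank 30 to rank 22 in J.gamma1.

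**Figure D4:**
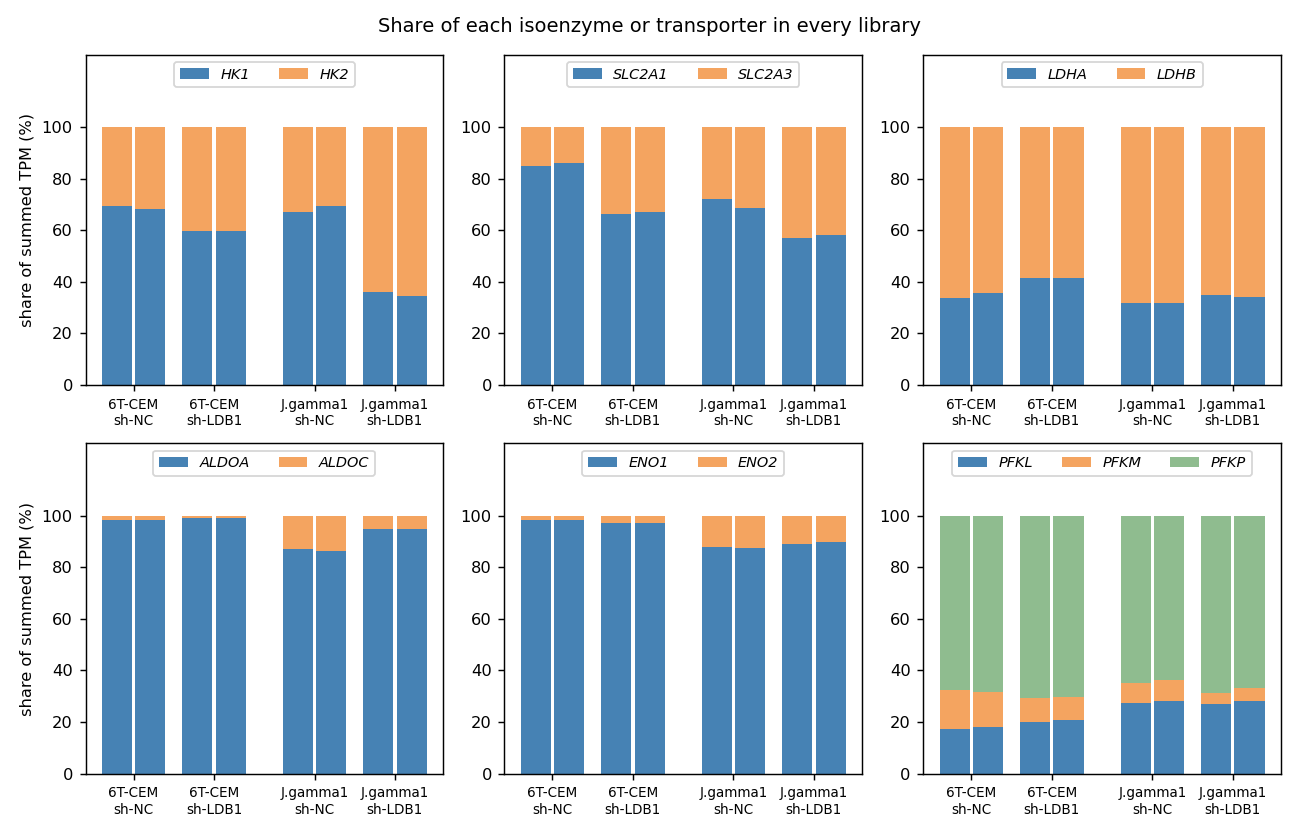
Share of each isoenzyme or transporter in the summed TPM of its set (percent), 1 bar per library, with the 2 libraries of a group next to each other. By exon union length the HK2 share passes that of HK1 in the J.gamma1 sh-LDB1 libraries, where canonical transcript length puts them about equal, and the SLC2A3 share is larger in the sh-LDB1 libraries of both lines.

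For steps carried by several genes, the share of each in the summed TPM showed which form prevailed. HK2 made up 32.99% and 30.5% of the hexokinase transcripts (HK1 and HK2) in the control and 63.9% and 65.5% in the knockdown libraries of J.gamma1, a difference of 33.0 percentage points between the means. In 6T-CEM the share was 30.5% and 31.9% against 40.3% and 40.4%, or 9.16 points. HK1 thus remained the larger form in 6T-CEM. By exon union HK2 became the larger one in J.gamma1, at 47.1 TPM beside 25.7 TPM, but this order depends on the length used. With the longest transcript the sh-LDB1 means were 36.5 and 32.5 TPM, and with the canonical transcript, a length chosen after seeing the data, they were 28.5 and 28.2 TPM, or about equal. SLC2A3 made up 15.3% and 14.2% of the 2 glucose transporters in control and 33.7% and 32.8% in knockdown cells of 6T-CEM, a difference of 18.5 points. In J.gamma1 it made up 27.9% and 31.5% against 43.01% and 41.8%, or 12.7 points, so that SLC2A1 stayed the larger of the pair in every library. ALDOC held a mean of 13.4% of aldolase transcripts in J.gamma1 controls and 5.39% after knockdown, and at most 1.82% in any 6T-CEM library. LDHB held more than LDHA in every library, with a mean of 65.4% in controls and 58.6% in knockdown cells of 6T-CEM.

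The stretches before the starts of some genes are shown because the genes that were lower in both lines include classical HIF targets whose promoters carry the core letters of the HIF binding element. The letters ACGTG were searched on both strands (CACGT is the other strand) in the 250 bases before the start, in the RefSeq promoter table on GRCh38.p14, for the 23 genes with an entry at the start of their canonical GENCODE transcript. BNIP3L, NDRG1, PFKFB2, VEGFA, SLC16A1 and SLC2A3 had no entry, and the other 6 genes had entries at other starts only. ACGTG was present before 13 of the 23 genes searched, or 56.5%. By call, it was present before 5 of 6 genes that were lower in both lines and before 6 of 9 genes called in neither line. It was present before 2 of 7 genes called in 1 line or in opposite directions and not before the single gene higher in both (PKM). The difference between these groups of genes was not tested. Over all 35116 promoter windows of that length, 18.5% held it, 32.2% held the variant GCGTG and 6.34% held CACGTG, the E-box, which contains ACGTG on both strands. GCGTG was present before 1 of 6 genes lower in both lines and before 5 of 9 called in neither. It was present before 3 of 7 called in 1 line or in opposite directions. For CACGTG these counts were 2 of 6, 3 of 9 and 0 of 7, and PKM had neither. The whole window of EGLN1, chr1:231422288-231422537 on the minus strand, is given 5′ to 3′ with the match in capitals.
EGLN1: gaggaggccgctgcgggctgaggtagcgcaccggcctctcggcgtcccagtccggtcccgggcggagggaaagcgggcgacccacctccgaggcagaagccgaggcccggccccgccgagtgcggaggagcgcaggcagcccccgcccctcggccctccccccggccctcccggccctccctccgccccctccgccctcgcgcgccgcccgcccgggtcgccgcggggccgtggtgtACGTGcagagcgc

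The match nearest the start is given below for the other genes lower in both lines whose window held one. After these come 3 glycolytic enzymes called in neither line. Each stretch runs 5′ to 3′ along the gene, with at most 10 bases on each side and the match in capitals. LDHB, also lower in both lines, had a window without a match, and no window of HK1, PFKM, PFKFB2 or BNIP3L was searched. The first base of the match lies -86, -8, -28, -107, -73, -183 and -198 bases from the start, in the order shown, and -13 bases in EGLN1.
P4HA1: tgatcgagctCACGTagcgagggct
PDK1: ccacgtccctCACGTacc
ALDOC: ccggaggagtCACGTagctctgcga
PFKFB3: cctcctccccACGTGgaagggggct
LDHA: tgggttcccgCACGTccgccggccc
PGK1: acggaagccgCACGTctcactagta
ALDOA: tggtccgagtCACGTccgagggggg
The windows were chr10:73096867-73097116 (minus strand), chr2:172555840-172556089 (plus), chr17:28576896-28577145 (minus), chr10:6202682-6202931 (plus), chr11:18394313-18394562 (plus), chrX:78103998-78104247 (plus) and chr16:30065510-30065759 (plus). The match of PFKFB3 lies in a CACGTG. Matches were thus found before genes that fell and before genes that did not pass the test, and a match is a run of letters, not a bound site.

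Other genes of the same pathways were taken from lists apart from the 35. HKDC1, a further hexokinase, had 6 and 5 counts in the control and 206 and 214 counts in the knockdown libraries of J.gamma1 (5.37 ± 0.30 (SE), edgeR adjusted p = 1.74e-07), and in 6T-CEM it had 6 and 14 against 76 and 91 counts (2.93 ± 0.41 (SE), edgeR adjusted p = 7.48e-05). It was thus nearly absent in controls and low after knockdown, at 2.88 and 7.30 CPM. Of 20 such isoenzymes and side enzymes, 9 were tested in 6T-CEM (1 higher, 1 lower) and 11 in J.gamma1 (3 higher, 3 lower). The shares over all genes tested were 15.1% higher and 16.2% lower in 6T-CEM, and 25.0% and 26.5% in J.gamma1. PGM1, which links glycogen to glycolysis, was lower in both lines (-0.48 and -0.64). ENO3, the muscle enolase, was called higher in J.gamma1 at 0.42.

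Genes of pyruvate entry into mitochondria were 11 among those tested. Of these, 7 were lower, none higher and 4 not called in 6T-CEM, beside 16.2% of all genes lower, and 6 were lower, 1 higher (PDP2) and 4 not called in J.gamma1, beside 26.5% lower. Their medians were -0.25 and -0.21. DLAT (-0.62) and PDHB (-0.58), subunits of pyruvate dehydrogenase, and PDK3 (-0.46), a kinase that inhibits it, led in 6T-CEM. DLAT was at 0.066 in J.gamma1 and did not pass the test there. PDK3 (-1.19), the pyruvate carrier subunit MPC2 (-0.65) and PDK2 (-0.62) led in J.gamma1. Subunits of the enzyme and its inhibitory kinases were therefore both among the genes that fell.

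In the pentose phosphate pathway, which takes glucose phosphate to NADPH and ribose, TALDO1, a transaldolase, was higher in both lines (0.23 in 6T-CEM and 0.72 in J.gamma1). PGD, an oxidative enzyme of the pathway, was lower (-0.57 in 6T-CEM and -0.42 in J.gamma1), and RPIA, which makes ribose phosphate, rose in J.gamma1 (0.79).

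Among 12 tested genes of the HIF machinery, VHL, the ubiquitin ligase subunit that binds hydroxylated HIF, was lower in both lines (-0.35 ± 0.078 (SE) in 6T-CEM and -0.59 ± 0.060 (SE) in J.gamma1). EGLN2 (-0.57) and EPAS1 (-0.64), the other hydroxylase and alpha subunit, were lower in J.gamma1, and the co-activator CREBBP was higher in both (0.44 and 0.35). EP300 was higher in 6T-CEM (0.35). Further HIF targets showed no common direction, with 5 higher and 4 lower of 18 tested in 6T-CEM and 4 higher and 6 lower of 24 in J.gamma1. The shares over all genes tested were 15.1% higher and 16.2% lower in 6T-CEM, and 25.0% and 26.5% in J.gamma1. WSB1 was higher in both (0.52 and 0.89), BHLHE40 (0.62) and MXI1 (0.49) in 6T-CEM, and STC2 (1.22) in J.gamma1. DDIT4 (REDD1), an inhibitor of mTOR signalling, stood at 42.6 and 41.4 CPM against 43.9 and 46.4 CPM in 6T-CEM and rose from 52.6 and 57.6 CPM to 185 and 201 CPM in J.gamma1 (1.83 ± 0.063 (SE), edgeR adjusted p = 6.75e-09).

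Of a list of genes that sense glucose, drive glycolysis or carry sugar and lactate, 4 were higher, 2 lower and 2 not called of 8 tested in 6T-CEM, and 3 were higher, 1 lower and 3 not called of 7 in J.gamma1. The shares over all genes tested were 15.1% higher and 16.2% lower in 6T-CEM, and 25.0% and 26.5% in J.gamma1. MLXIP, a glucose-responsive transcription factor, was at 0.073 and -0.15 and passed the test in neither line; MLXIP and PDP2 are named after their values were seen. MYC was lower in 6T-CEM, from 428 and 431 CPM to 308 and 326 CPM (-0.43 ± 0.053 (SE), edgeR adjusted p = 2.56e-05), and higher in J.gamma1, from 151 and 154 CPM to 218 and 222 CPM (0.54 ± 0.046 (SE), edgeR adjusted p = 3.81e-06). TXNIP, an arrestin that limits glucose uptake and responds to intracellular glucose, rose from 44.1 and 49.4 CPM to 88.4 and 93.6 CPM in 6T-CEM (0.97 ± 0.077 (SE), edgeR adjusted p = 2.86e-07) and had at most 7 counts in any J.gamma1 library. Its relative ARRDC4 rose in J.gamma1 from 15.8 and 16.5 CPM to 46.4 and 45.8 CPM (1.54 ± 0.080 (SE), edgeR adjusted p = 9.96e-08) and lay between 1.53 and 1.89 CPM in 6T-CEM. BSG, the chaperone of the monocarboxylate transporters, was higher in both lines (0.42 in 6T-CEM and 0.67 in J.gamma1), and SLC16A7 in 6T-CEM (0.44). SLC2A4, a low transcript with 89 and 146 counts in J.gamma1 controls, was lower there (-1.29).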

How the data were processed

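The 35 genes and the lists of other pathway genes were chosen with earlier results of these data known. Per the labels and the study's methods, the authors aligned paired reads to hg38 with HISAT2 2.2.0, quantified genes with StringTie and deposited 1 table of whole-number counts per gene for each cell line, without normalization. The annotation, the use of strand and the treatment of reads that match several genes are not given in the sources used here. Of 64252 genes, 56105 were matched to a symbol in GENCODE release 44, and coordinates are on GRCh38.

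R 4.3.3 was used with edgeR 4.0.16 and DESeq2 1.42.0, and Python 3.11.15 with pandas 2.3.3 and matplotlib 3.10.9. Each line was fitted by itself with edgeR's quasi-likelihood test (robust), TMM scaling, filterByExpr and p-values adjusted by Benjamini-Hochberg; differences between lines and control levels came from 1 fit to the 8 libraries. Standard errors were derived from the fold change and the F statistic. The coefficient of variation between libraries of a group, from the common dispersion of edgeR, was 9.68% for 6T-CEM and 9.16% for J.gamma1. It may be technical, since separate cultures are not stated. The procedure was tested on simulated counts. TPM was computed from the deposited counts and the exon union length, for genes with a symbol (97.8% of counts). No lists were tested as sets. Some values from these lists are not reported here. Any of the 35 genes could be named; from each other list, at most the 3 called genes per line with the largest change and a mean of at least 50 counts were named. Total counts of 26160492 to 30604977 leave genes of a few counts imprecise. Other scalings, filters, DESeq2, a replicate block, leaving out each library, a fit to 8 libraries and other lengths were tried.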

Additional observations from a re-analysis of the deposited data

Results flagged for a closer look

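The change on LDB1 knockdown differed between J.gamma1 and 6T-CEM for 12 of the 35 genes, by the interaction test of edgeR over the 8 libraries. As the change in J.gamma1 minus that in 6T-CEM on the log2 scale, it was 1.04 for HK2, 0.87 for SLC2A1, 0.41 for SLC16A1, 0.26 for GPI and 0.24 for LDHB. It was negative for PFKFB4 (-1.001), BNIP3L (-0.97), ENO2 (-0.80), PFKFB3 (-0.66), NDRG1 (-0.64), HK1 (-0.36) and PKM (-0.23). For HK1, PKM, LDHB, PFKFB3 and BNIP3L the change was called in the same direction in both lines and differed in size, whereas for ENO2 it was called in opposite directions. With 2 libraries per group, no single library could be tested as standing apart from its group. LDB1 itself fell less in J.gamma1 than in 6T-CEM, and the cause of the 12 differences was not tested.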

How the results depend on the processing

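RLE and upper quartile scaling, no filter on low counts, a mean of at least 50 counts, DESeq2, a fit to 8 libraries and leaving out each library left the number of genes called higher or lower in each line within 1.5 times the value in the report. Requiring a log2 fold change over 1 gave 1 higher and 1 lower in 6T-CEM, 1 higher and 4 lower in J.gamma1, and 824 and 2386 calls over all genes in place of 5023 and 8870. Without the filter on low counts, 3 genes in place of 5 had a more positive change in J.gamma1, a fit in which more genes share the adjustment. Leaving out a library in turn gave 3 to 6 of them, and 3234 to 3875 calls over all genes in 6T-CEM, with 3234 without sh-NC library 1 and 3339 without sh-NC library 2; a group left with 1 library is assumed there to vary like the other group. Uncalled changes turned sign for ALDOA in J.gamma1 (0.040 with upper quartile factors, 0.013 with a mean of at least 50 counts, -0.019 to 0.0044 leaving out a library), for GAPDH (-0.0018 to 0.017) and PGK1 (-0.10 to 0.0024) in that line, and for PFKFB4 (-0.34 to 0.33) and HIF1A (-0.023 to 0.069) in 6T-CEM, all leaving out a library; the cause was not tested. HK2's gain in share with the longest transcript as length was 7.56 points in 6T-CEM, against 30.7 in J.gamma1, and with the canonical one 7.17 and 29.8, a length chosen after seeing the data. SLC2A3's gain in 6T-CEM was 16.8 points with the longest transcript and 19.4 without division by length.

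DESeq2 lost the calls of PFKFB2 in 6T-CEM (adjusted p = 0.0832) and EGLN3 in J.gamma1 (0.0874) and added TPI1 (0.0496) and PGK1 (0.0407) in 6T-CEM. LDHB in J.gamma1 was lost with upper quartile factors (0.207), no filter (0.0653), the stricter filter (0.0614) or the fit to 8 libraries (0.0627), and GPI and PGAM1 in 6T-CEM with upper quartile factors (0.0624 and 0.103) or no filter (0.0943 and 0.121). Same-numbered libraries shared only a number: the correlation of their deviations was -0.028 for 6T-CEM, 0.022 for J.gamma1, over 13635 genes. A replicate block gave 4 genes higher and 12 lower in 6T-CEM and 7 and 15 in J.gamma1, adding HIF1A (adjusted p = 0.0422), with 5 and 7 for the difference between lines and 12 and 19 for the control levels.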
